A study of Mus musculus with 8 samples.

Results

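Interferon-stimulated genes were followed in the epididymal fat of wild-type mice and of mice with a double knockout of the microRNA miR-181. The 35 genes were taken by symbol from the table of expression values. It lists 16505 genes, and all 35 had a row. They are 5 oligoadenylate synthetase genes (Oas1a, Oas2, Oas3, Oasl1, Oasl2), 3 Ifit genes (Ifit1, Ifit2, Ifit3), 7 interferon-inducible GTPases (Mx1, Mx2, Gbp2, Gbp3, Iigp1, Irgm1, Igtp), 6 signalling and ISGylation genes, 4 nucleic acid sensors and 10 other effectors.

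Messenger RNA of epididymal white adipose tissue, the fat depot beside the epididymis, was sequenced from 8 C57BL/6 mice that had eaten a high fat diet for 12 weeks. A first group of 4 mice was wild type (WT), and the other 4 carried a double knockout of Mir181 (the knockout, DKO in the plots). The labels give neither the ages nor the loci deleted, nor whether the deletion acts in all cells, and the study concerned the microbiota, adipose inflammation and obesity. Nothing in the labels says whether mice shared litters or cages, so p-values measure only the spread between these samples.

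Type I interferons are secreted when a cell senses foreign or misplaced nucleic acid. Type I interferon binds the receptor Ifnar1 and Ifnar2, and the kinases Jak1 and Tyk2 then activate factors that include Stat2. With Irf9 these form a complex that binds the interferon-stimulated response element (ISRE) in promoters. Interferon gamma acts through Ifngr1 and Ifngr2 on promoters with the gamma-activated sequence (GAS), and it drives many of the GTPases more strongly than type I interferon does. In obese fat, macrophages and adipocytes are both known to respond to interferon.

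The mature miR-181 sequences are shown because the mice are labelled as lacking members of this family. The table used here has no row named for miR-181, and the knockout was not checked from these data. They come from RefSeq (GRCm38.p6), 5′ to 3′, with the seed, bases 2 to 8, in capitals.
miR-181a-5p: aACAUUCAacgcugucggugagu
miR-181b-5p: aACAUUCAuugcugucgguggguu
miR-181c-5p: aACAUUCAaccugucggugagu
miR-181d-5p: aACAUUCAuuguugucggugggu
All 4 share 1 seed, ACAUUCA, whose match in a messenger RNA is TGAATGT. That heptamer was present in the longest annotated 3′ UTR (GENCODE M21, GRCm38) of 5 of the 35 genes (14.3%), against 2361 of 12855 tested genes with a UTR (18.4%). The genes with a match were Oas3, Ifit2, Herc6, Cmpk2 and Ifi44. Stretches of 30 bases are given for Oas3 and Ifit2, the Oas and Ifit members with a match, which is in capitals.
Oas3, bases 448 to 454 of a UTR of 1266: tcatgtgtatctgtgTGAATGTctgtgtgt
Ifit2, bases 368 to 374 of a UTR of 1945: aattcctcacatgggTGAATGTtccatcct
A match is a description of letters and not a tested site.

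Promoter windows, from 250 bases before to 50 after a gene's start, were held by the RefSeq table (GRCm38.p6) for 25 of the 35 genes. The ISRE core GAAANNGAA, searched on both strands, was found in 15 of these 25 (60.0%), against 8.81% of 10396 tested genes with a window and 8.56% of all 32851 windows. The GAS letters TTCNNNGAA were found in 5 of 25 (20.0%), against 8.28% and 8.3%. Cores that overlap were each counted, and ISRE and GAS letters may overlap. Stretches of 80 bases are shown for 2 genes that fell in the knockout (Oas1a, Oas3) and 3 that did not pass the test (Ifit1, Gbp2, Irgm1), 5′ to 3′ in the direction of the gene, with the cores in capitals.
Oas1a, minus strand, chr5:120907498-120907577: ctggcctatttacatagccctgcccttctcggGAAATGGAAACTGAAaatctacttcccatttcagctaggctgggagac
Oas3, minus strand, chr5:120777687-120777766: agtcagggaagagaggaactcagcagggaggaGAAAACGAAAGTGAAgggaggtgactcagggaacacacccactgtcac
Ifit1, plus strand, chr19:34640757-34640836: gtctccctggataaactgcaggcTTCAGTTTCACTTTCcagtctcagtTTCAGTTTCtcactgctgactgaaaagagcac
Gbp2, plus strand, chr3:142620570-142620649: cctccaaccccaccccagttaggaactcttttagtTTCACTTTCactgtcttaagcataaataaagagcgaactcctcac
Irgm1, minus strand, chr11:48871403-48871482: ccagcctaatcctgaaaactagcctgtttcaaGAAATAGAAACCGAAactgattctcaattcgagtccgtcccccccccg
The windows held 2 cores in Oas1a, 2 in Oas3, 3 in Ifit1, 1 in Gbp2 and 2 in Irgm1. Those of Oasl1 and Oasl2 held 0, which says only that these letters are not in the windows. Genes that fell and genes that did not pass thus both carried the core.

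Values are log2 CPM, the usual library-scaled read counts on a log2 scale. They are not scaled to gene length, so levels are compared between libraries and not between genes. A change is knockout minus WT on this scale, ± SE from limma with n = 4 in each group, and genes were called at a Benjamini-Hochberg adjusted p under 0.05 over 13797 tested genes. Library totals ran from 3736881 reads (knockout replicate 1) to 76838584 (knockout replicate 2), and the 35 genes together held 3118 to 57754 reads. Ribosomal RNA exceeded 1% of reads in WT replicates 1, 3 and 4 and knockout replicate 1, and epididymis markers exceeded 1% in WT replicate 2 and knockout replicates 2 and 4. Adipocyte markers, which define the labelled tissue, took 0.839% to 1.49% of WT reads and 2.14% to 3.75% of knockout reads. Macrophage markers took 1.13% to 1.29% and 0.221% to 0.312%. Wilson 95% intervals, which cover counting error only, reached at most 0.017 points from these shares.

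WT replicate 3 stood apart for interferon-stimulated genes. It was the highest WT library in 33 of the 35 genes (94.3%), where 30.9% of all tested genes were highest in it, and the highest of all 8 libraries in 25 (71.4%), against 10.2% of all genes. Its median excess over the mean of the other 3 WT libraries was 0.58 for the 35 genes and 0.04 for all tested genes. Among all WT and knockout libraries its summed level of the 35 genes was also highest, at 1365 CPM, where the other WT libraries held 796.5, 809.8 and 821.5 CPM and the knockout libraries 834.4, 751.6, 1034 and 908.3 CPM. Iigp1 was 6.02-fold above the mean of the other WT libraries and ranked 4 among 13797 genes by this excess. Changes are therefore given with WT replicate 3 and, where it moves them, without it.

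**Figure D1:**
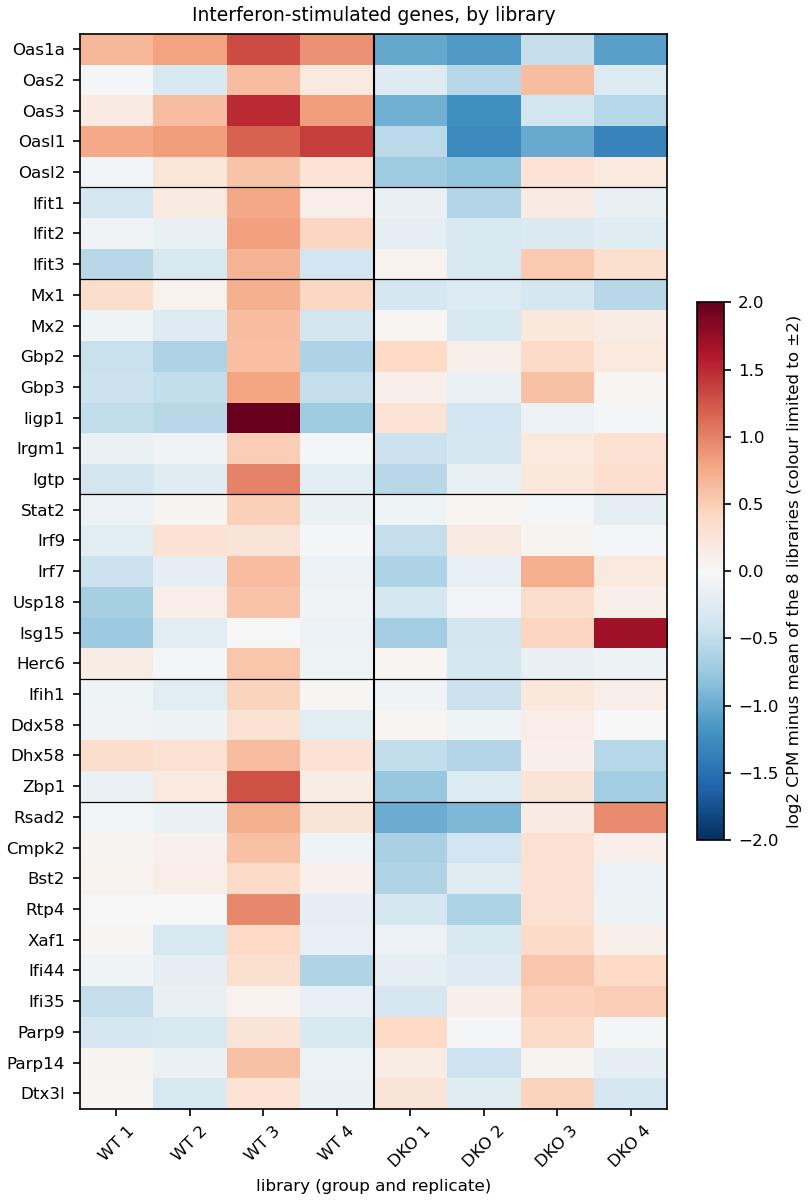
Level of each of the 35 genes in each library as log2 CPM minus its mean over the 8 libraries (red above, blue below, colour limited to ±2), with lines between the Oas, Ifit, GTPase, signalling, sensor and effector groups and between WT and knockout. WT replicate 3 is red in nearly every row, while Oas1a, Oas3 and Oasl1 are red in all 4 WT and blue in all 4 knockout libraries.

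Of the 35 genes, 5 fell in the knockout (14.3%) and 0 rose in limma. Among all tested genes 16.1% were called lower and 22.7% higher, so the share that fell lay near the background. The genes that fell were Oas1a, Oas3, Oasl1, Mx1 and Dhx58, by 1.70-fold to 4.21-fold. At an unadjusted p under 0.05 there were 6 lower, with Ifit2 added, and 0 higher. Groups did not overlap, with the knockout below, for the same 6 genes (17.1%), where 16.6% of all tested genes did so downward and 20.8% upward. The median change of the 35 genes was −0.14, against 0.18 over all tested genes, and 28 of the 35 lay under that median of all genes. Relative to that median it was −0.32. Signs were mixed, with 22 changes below 0 and 13 above, and centring each library on its median put Mx2, Irf7, Usp18, Ddx58, Xaf1 and Dtx3l below 0 as well, none of them called.

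Without WT replicate 3, 4 of the 35 genes fell (11.4%) and 4 rose (11.4%), where 13.9% and 19.0% of all tested genes did. Mx1 was no longer called, and Gbp2, Gbp3, Iigp1 and Parp9 were called higher. WT replicate 3 was singled out because it was high for most of the 35 genes. Leaving it out therefore lowers the WT mean of such genes and can narrow their spread. Calls without it, here and below, are a description and not a separate test. The median change of the 35 genes became −0.003, against 0.19 over all tested genes, with 18 changes below 0 and 17 above. Within the 4 libraries with over 1% ribosomal RNA (3 WT, 1 knockout) the median was −0.41. Within the other 4 (1 WT, 3 knockout) it was 0.11, so its direction differed between these classes. Each class has a single library of one group. The class over 1% holds WT replicate 3, and the only WT library of the other class is rich in epididymis reads. These differences cannot be told apart from ribosomal RNA here.

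**Figure D2:**
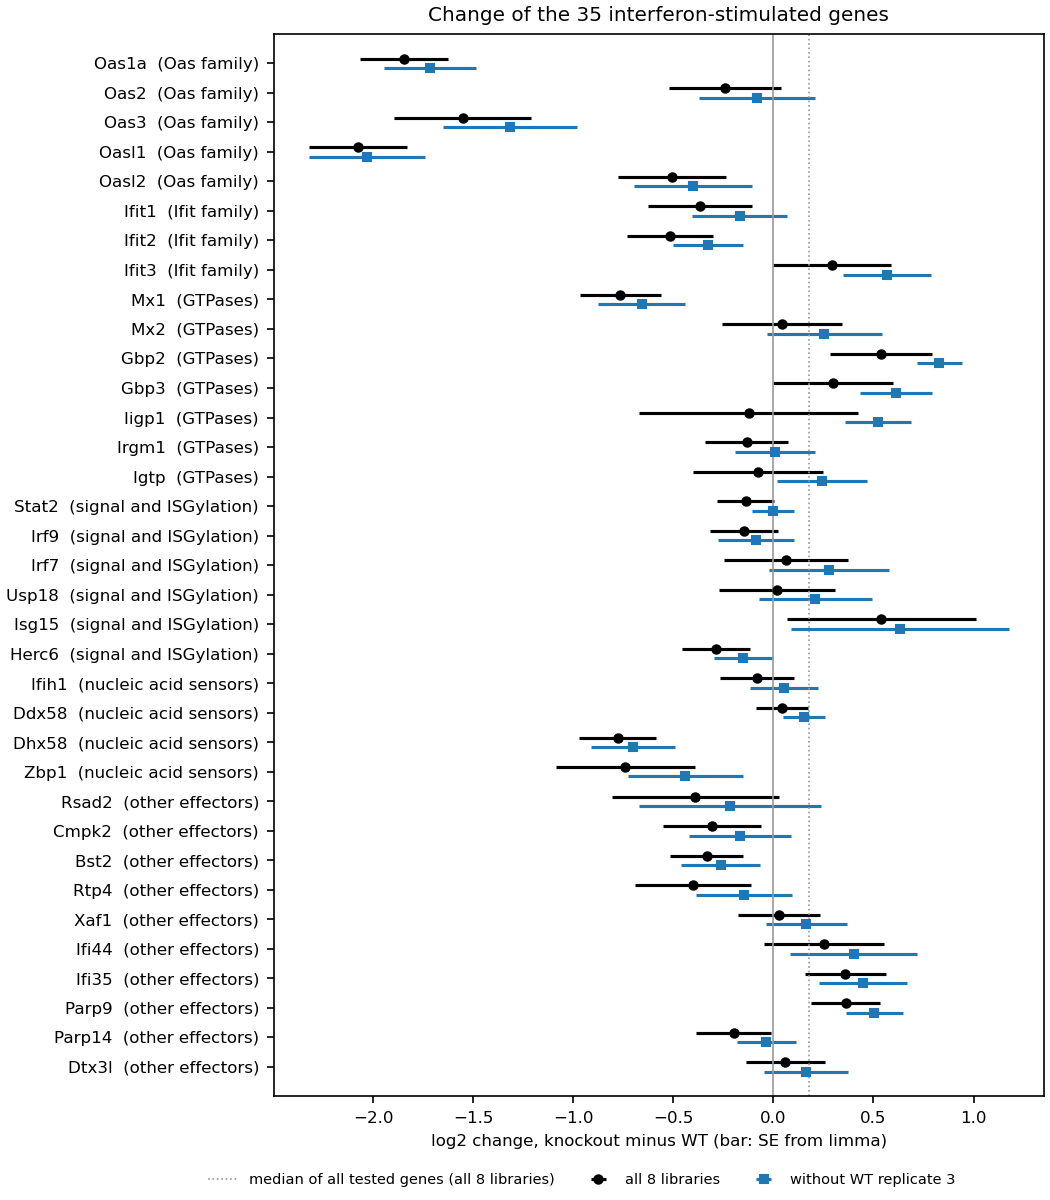
Change of each of the 35 genes, knockout minus WT in log2 CPM, with all 8 libraries (black circles) and without WT replicate 3 (blue squares), bars giving the SE from limma and the dotted line the median change of all tested genes (0.18). Oas1a, Oas3 and Oasl1 lie at −1.3 or lower either way, and Gbp2, Gbp3 and Iigp1 move up when WT replicate 3 is left out.

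The Oas family held the largest falls among the 35 genes, and the changes of its 5 members among them were all below 0. Oas enzymes sense double-stranded RNA and make 2′-5′-linked oligoadenylates, a second messenger of antiviral defence. Of the 5 members 3 fell and 2 did not pass the test, with a median change of −1.55 over all libraries and −1.32 without WT replicate 3. Oas1a, an active synthetase, stood at 3.74, 3.87, 4.38 and 3.98 in WT replicates 1 to 4 and at 2.05, 1.94, 2.61 and 1.98 in knockout replicates 1 to 4. The groups were more than 1 unit apart. Oas1a fell by 1.85 ± 0.22, a 3.59-fold fall (limma adjusted p = 0.000304). Oasl1, which lacks synthetase activity and is known to restrain the translation of Irf7, stood at 3.35, 3.43, 3.77 and 3.98 in WT and 2.05, 1.32, 1.59 and 1.25 in the knockout. Knockout replicate 1 was its highest knockout library and still lay well under every WT library. Oasl1 fell by 2.08 ± 0.25, or 4.21-fold (adjusted p = 0.000312), the largest change among the 35 genes.

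Oas3, which binds long double-stranded RNA, stood at 1.93, 2.37, 3.25 and 2.60 in WT and at 0.80, 0.54, 1.39 and 1.19 in the knockout. It rested on few reads, 6 in the shallowest library, and its groups did not overlap. Oas3 fell by 1.55 ± 0.34 (adjusted p = 0.00692) and by 1.32 ± 0.33 without WT replicate 3 (adjusted p = 0.0197). Oas1a and Oasl1 were called lower in all 19 alternative analyses and Oas3 in all 18 that tested it. The sources used here do not say how reads shared by near-identical copies were counted, so the split of reads between Oas1a and its close copy Oas1g is uncertain. Oas1g, outside the 35 genes, fell as well (−1.76 ± 0.42, adjusted p = 0.00972). It was not called without the libraries rich in epididymis reads (adjusted p = 0.0546), a fit with fewer libraries. The related Oas1b (0.19 ± 0.27, adjusted p = 0.601) and Oas1c (0.11 ± 0.20, adjusted p = 0.685) did not pass, and their changes were above 0.

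Oas2 and Oasl2 did not pass the test. Oas2 stood at 4.13, 3.85, 4.76 and 4.35 in WT and at 3.89, 3.58, 4.77 and 3.87 in the knockout. The highest value was in knockout replicate 3, and the groups overlapped (change −0.24 ± 0.28, adjusted p = 0.513). Oasl2, an Oas-like protein that keeps synthetase activity, stood at 4.80, 5.09, 5.42 and 5.12 in WT and at 4.15, 4.07, 5.13 and 5.05 in the knockout. Knockout replicates 1 and 2 were low while replicates 3 and 4 lay within the WT range (change −0.51 ± 0.27, adjusted p = 0.161).

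Differences between 2 genes of a family were also taken within each library. Each pair sets a gene that fell against one that did not pass and was picked after the values were seen, so it restates the calls, carries no test and is read only for its shift between WT and knockout. Oas1a minus Oas2 was −0.39, 0.03, −0.37 and −0.37 in WT and −1.84, −1.64, −2.16 and −1.88 in the knockout. Oasl1 minus Oasl2 was −1.45, −1.66, −1.65 and −1.14 in WT and −2.10, −2.74, −3.54 and −3.79 in the knockout. In both pairs every knockout library lay below every WT library, WT replicate 3 included.

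**Figure D3:**
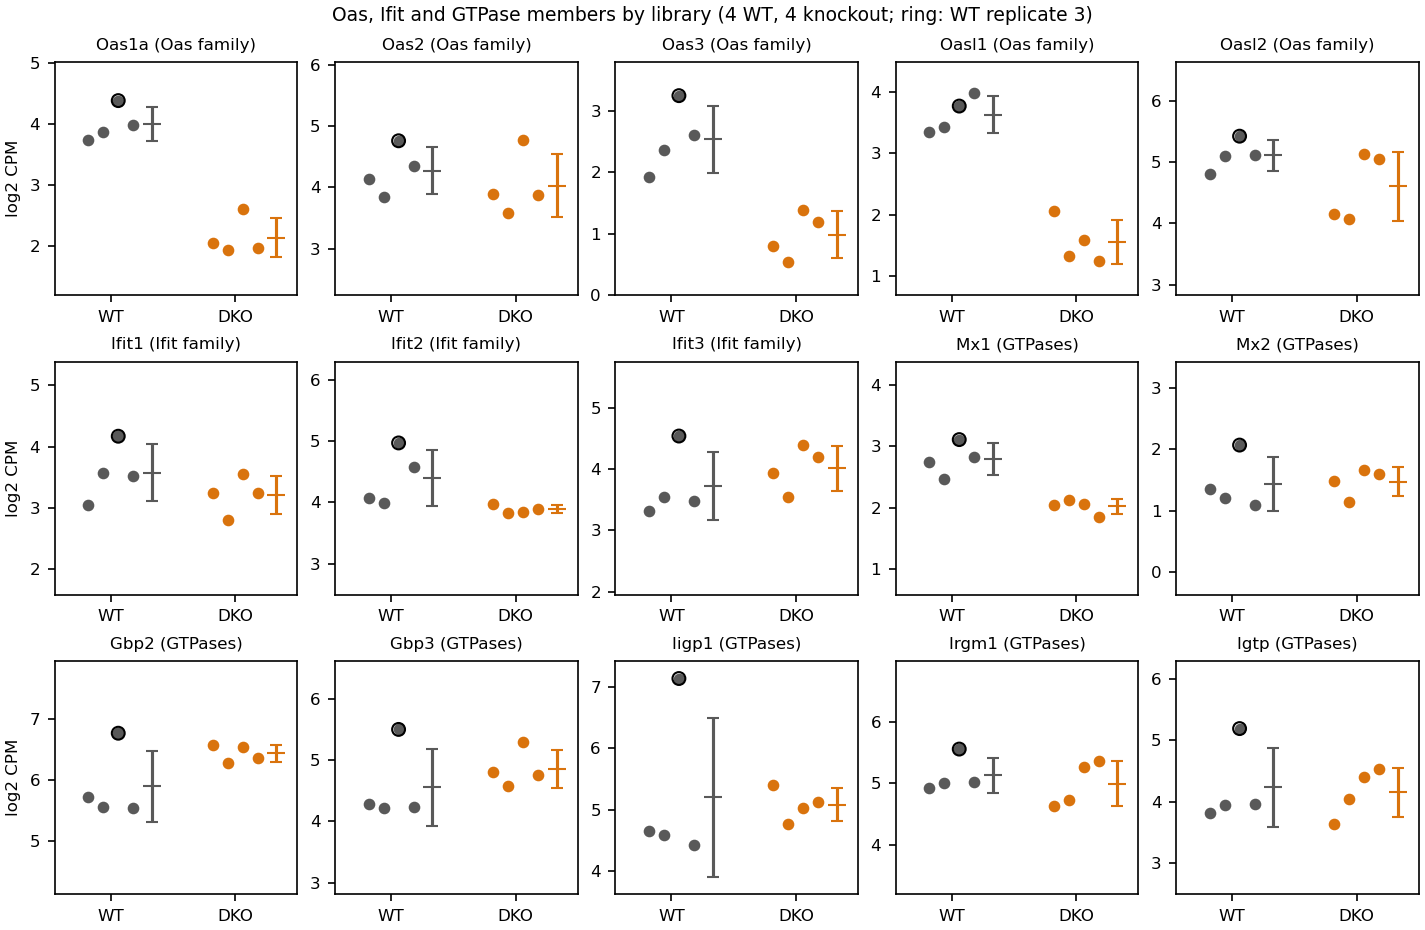
Level of the 15 Oas, Ifit and GTPase genes in each library (log2 CPM, WT grey, knockout orange, WT replicate 3 ringed), with the mean and SD of each group beside the points, each panel spanning the same number of log2 units. Oas1a, Oas3, Oasl1 and Mx1 separate the groups downward, and Iigp1 shows a single high WT library at 7.14.

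The Ifit family member Ifit1 binds viral RNA that lacks the host's cap methylation and blocks its translation. None of the 3 Ifit genes passed the test, and their median change was −0.37 with all libraries and −0.17 without WT replicate 3. Ifit1 stood at 3.04, 3.57, 4.17 and 3.52 in WT and at 3.25, 2.80, 3.55 and 3.24 in the knockout, with overlapping groups (−0.37 ± 0.26, adjusted p = 0.286). Ifit2 stood at 4.07, 3.99, 4.97 and 4.57 in WT and at 3.97, 3.82, 3.85 and 3.90 in the knockout. Its 4 knockout values lay close together (SD 0.067) and under every WT value, though WT replicate 2 was only just above the highest of them. Its change was −0.52 ± 0.21 (adjusted p = 0.0837), and it was called only without WT replicate 2 (−0.65, adjusted p = 0.0401). Ifit3 stood at 3.31, 3.55, 4.54 and 3.48 in WT and at 3.94, 3.54, 4.39 and 4.19 in the knockout. Apart from WT replicate 3, its 3 highest libraries were knockouts, and its change was 0.29 ± 0.29 (adjusted p = 0.451) or 0.57 ± 0.22 without that library (adjusted p = 0.0859). Ifit3 has a near-identical copy, so its read counts are uncertain in the same way as those of Oas1a.

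Of the 7 GTPases Mx1 fell, and the calls of Mx1, Gbp2, Gbp3 and Iigp1 changed when WT replicate 3 was left out, while Mx2, Irgm1 and Igtp were not called either way. Mx proteins are dynamin-like GTPases that block virus replication, and C57BL/6 mice are known to carry an Mx1 allele that gives no functional protein. Mx1 stood at 2.75, 2.47, 3.11 and 2.82 in WT and at 2.05, 2.13, 2.06 and 1.85 in the knockout, without overlap. It fell by 0.76 ± 0.20 (adjusted p = 0.0166). This call was lost without WT replicate 3 (−0.66 ± 0.22, adjusted p = 0.0511), in a fit that adds the ribosomal RNA class (−0.65, adjusted p = 0.0535) and without the libraries rich in epididymis reads (−0.84, adjusted p = 0.07). Mx2 stood at 1.36, 1.20, 2.07 and 1.09 in WT and at 1.49, 1.14, 1.67 and 1.60 in the knockout. Its groups overlapped (0.04 ± 0.30, adjusted p = 0.921). Mx1 minus Mx2 was 1.39, 1.27, 1.04 and 1.73 in WT and 0.56, 0.99, 0.39 and 0.26 in the knockout, again with every knockout library below every WT library.

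Guanylate-binding proteins and immunity-related GTPases attack the vacuoles of intracellular microbes, and both groups are classic targets of interferon gamma. Gbp2 stood at 5.72, 5.55, 6.76 and 5.54 in WT and at 6.56, 6.28, 6.54 and 6.36 in the knockout. All 4 knockout libraries lay above 3 of the WT libraries, and WT replicate 3 lay above them all. The change was 0.54 ± 0.26 with all libraries (adjusted p = 0.122) and 0.83 ± 0.11 without WT replicate 3 (adjusted p = 0.0014). Gbp3 stood at 4.28, 4.21, 5.50 and 4.23 in WT and at 4.81, 4.57, 5.29 and 4.75 in the knockout. It showed the same order, with 0.30 ± 0.30 (adjusted p = 0.455) becoming 0.61 ± 0.18 (adjusted p = 0.0345).

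Iigp1, a vacuole-disrupting member of the immunity-related GTPases, stood at 4.65, 4.58, 7.14 and 4.43 in WT and at 5.41, 4.76, 5.02 and 5.12 in the knockout. The WT SD was 1.30 against 0.27 in the knockout. The change turned from −0.12 ± 0.55 (adjusted p = 0.871) to 0.52 ± 0.17 without WT replicate 3 (adjusted p = 0.0444), so its direction rested on that library. Irgm1, which keeps the effector GTPases in check on host membranes, stood at 4.93, 5.0, 5.56 and 5.03 in WT and at 4.63, 4.73, 5.26 and 5.37 in the knockout. Igtp, a related regulatory GTPase, stood at 3.82, 3.95, 5.19 and 3.96 in WT and at 3.64, 4.04, 4.40 and 4.53 in the knockout. For both genes knockout replicates 3 and 4 lay above the ordinary WT libraries and knockout replicate 1 lay below them. Neither passed the test (Irgm1 −0.13 ± 0.21, adjusted p = 0.632, and Igtp −0.08 ± 0.32, adjusted p = 0.863). Both changes turned above 0 with WT replicate 3 left out (Irgm1 0.009 ± 0.20, adjusted p = 0.975, and Igtp 0.24 ± 0.23, adjusted p = 0.441). Without WT replicate 3 the median change of the 7 GTPases was 0.26 in place of −0.08, and 6 of the 7 changes were above 0 in place of 3.

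The 3 families were contrasted through the member of each with the highest mean over all 8 libraries (Oasl2, Ifit2 and Gbp2), taken by reads without scaling to length, a choice that does not use the groups. Oasl2 is one of the 2 Oas genes that did not pass, so its contrasts do not show the family medians of −1.55 for Oas and −0.37 for Ifit. Each contrast is the log2 ratio of 2 genes within a library, and only its difference between groups is read. Ifit2 minus Gbp2 was −1.65, −1.56, −1.80 and −0.97 in WT and −2.59, −2.47, −2.69 and −2.46 in the knockout, where every library was lower. The difference was −1.06 (two-sided exact permutation p = 0.0286, the smallest that 70 splits allow, 0.0857 adjusted over the 3 pairs). Oasl2 minus Gbp2 was −0.92, −0.47, −1.34 and −0.42 in WT and −2.41, −2.21, −1.41 and −1.31 in the knockout. Knockout replicate 4 overlapped WT replicate 3, and the difference was −1.04 (exact permutation p = 0.0571, adjusted 0.0857). Oasl2 minus Ifit2 differed by 0.01 (exact permutation p = 1) with a wide knockout range, from 0.18 to 1.28. No pair passed 0.05 after adjustment. Without WT replicate 3 the contrasts of Oasl2 and Ifit2 with Gbp2 were −1.23 and −1.16 (exact permutation, adjusted p = 0.0429 for each). In both, the raw p was the smallest that the fewer splits allow. That library is singled out because it was high for these genes, Gbp2 included, so these values are a description and not a separate test.

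**Figure D4:**
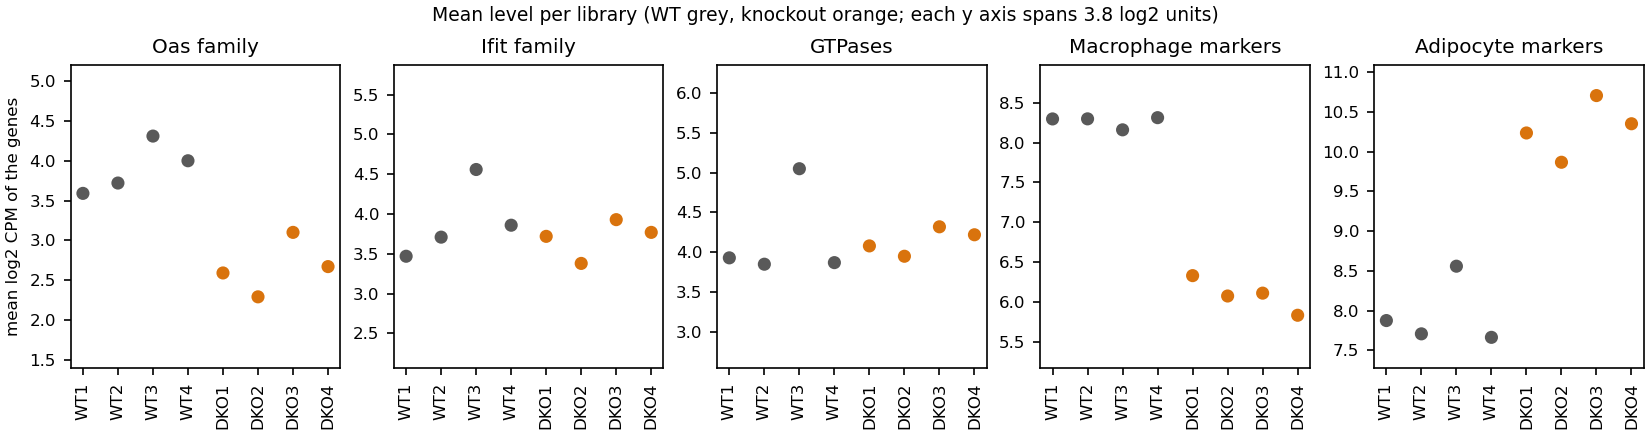
Mean log2 CPM per library of the Oas, Ifit and GTPase genes and of the macrophage and adipocyte markers (WT grey, knockout orange, 1 point per library, every axis spanning 3.8 log2 units). The Oas mean and the macrophage marker mean lie lower in all 4 knockout libraries, the adipocyte marker mean lies higher in them, and WT replicate 3 is high for the GTPases.

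Of the 4 nucleic acid sensors among the 35 genes, Dhx58 fell and the other 3 did not pass the test. Dhx58 (LGP2) is a helicase without a signalling domain that modulates the sensors Ifih1 (MDA5) and Ddx58 (RIG-I). It stood at 3.96, 3.92, 4.23 and 3.90 in WT and at 3.12, 3.02, 3.72 and 3.04 in the knockout. Knockout replicate 3 lay apart from the other knockouts and still below WT. Dhx58 fell by 0.78 ± 0.19 (adjusted p = 0.0114) and by 0.70 ± 0.21 without WT replicate 3 (adjusted p = 0.0367). The call was lost without the libraries rich in epididymis reads (−0.61 ± 0.26, adjusted p = 0.113), a fit with fewer libraries and a wider SE. Its signalling partners overlapped between groups, with changes of −0.08 ± 0.18 for Ifih1 (adjusted p = 0.743) and 0.04 ± 0.13 for Ddx58 (adjusted p = 0.81). Dhx58 minus Ddx58 was −1.50, −1.51, −1.61 and −1.40 in WT and −2.45, −2.43, −1.94 and −2.49 in the knockout, with no overlap. Zbp1, a sensor of Z-form nucleic acid that can start necroptosis, stood at 2.85, 3.19, 4.26 and 3.13 in WT and at 2.23, 2.71, 3.25 and 2.29 in the knockout. Knockout replicate 3 lay within the WT range, and the change of −0.74 ± 0.35 did not pass (adjusted p = 0.118). Without WT replicate 3 it was −0.44 ± 0.29 (adjusted p = 0.276). Zbp1 was called lower in a fit that adds the replicate number (−0.74 ± 0.20, adjusted p = 0.0256).

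None of the 6 signalling and ISGylation genes passed the test. Stat2 and Irf9, the interferon-specific parts of the complex that binds the ISRE, changed by −0.14 ± 0.14 (adjusted p = 0.469) and −0.15 ± 0.17 (adjusted p = 0.518). Irf7, which amplifies type I interferon production, changed by 0.06 ± 0.31 (adjusted p = 0.885). Its highest libraries were WT replicate 3 at 5.25 and knockout replicate 3 at 5.37. Usp18, which strips ISG15 from proteins and blocks the type I receptor, changed by 0.02 ± 0.29 (adjusted p = 0.965), and Herc6, the mouse ligase for ISG15, by −0.29 ± 0.17 (adjusted p = 0.203). Isg15, the ubiquitin-like modifier itself, stood at 2.10, 2.60, 2.84 and 2.71 in WT and at 2.14, 2.47, 3.27 and 4.53 in the knockout. A single library, knockout replicate 4, made most of its change of 0.54 ± 0.47 (adjusted p = 0.388).

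The 10 other effectors did not pass the test either, with changes from −0.40 to 0.36. Rsad2 (viperin), an enzyme that makes a chain-terminating nucleotide, stood at 4.44, 4.36, 5.21 and 4.75 in WT and at 3.51, 3.60, 4.66 and 5.44 in the knockout. Its knockout libraries spread over almost 2 units, from below every WT value to above every WT value (−0.39 ± 0.42, adjusted p = 0.481). Cmpk2, a mitochondrial nucleotide kinase, changed by −0.31 ± 0.25 (adjusted p = 0.344). Bst2 (tetherin), which holds budding virions at the cell surface, changed by −0.33 ± 0.18 (adjusted p = 0.168). It was called lower after centring each library on its median (−0.48, adjusted p = 0.0429) and without knockout replicate 3 (adjusted p = 0.0447). Rtp4 stood at 4.57 in WT replicate 3 and from 3.43 to 3.62 in the other WT libraries (change −0.40 ± 0.29, adjusted p = 0.297). Its change was −0.15 ± 0.24 without that library (adjusted p = 0.667).

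Parp9 and Dtx3l form a complex of an ADP-ribosyltransferase family protein and a ubiquitin ligase that promotes interferon responses. Parp9 stood at 5.70, 5.71, 6.29 and 5.72 in WT and at 6.43, 5.99, 6.42 and 6.01 in the knockout. Except for WT replicate 3, each WT library lay below each knockout library. The change was 0.36 ± 0.17 (adjusted p = 0.123), and 0.50 ± 0.14 without that library (adjusted p = 0.0291). Dtx3l, its partner, changed by 0.06 ± 0.20 (adjusted p = 0.827), and Parp14, a mono-ADP-ribosyltransferase, by −0.20 ± 0.19 (adjusted p = 0.418). Ifi35, a partner of Nmi, changed by 0.36 ± 0.20 (adjusted p = 0.186) and was called higher with array weights (0.51, adjusted p = 0.0305) and without knockout replicate 1 (0.53, adjusted p = 0.0286). Xaf1, an antagonist of the apoptosis inhibitor XIAP, changed by 0.03 ± 0.21 (adjusted p = 0.924), and Ifi44 by 0.25 ± 0.30 (adjusted p = 0.529).

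The excess of WT replicate 3 was uneven over the families. Its median excess over the other WT libraries was 1.16 for the 7 GTPases, all of which were highest of all 8 libraries in it, 0.80 for the Ifit genes and 0.52 for the Oas genes. Signalling genes, sensors and other effectors had medians of 0.54, 0.49 and 0.57. Excesses above 1 were seen for Iigp1 (2.59), Igtp (1.29), Gbp3 (1.26), Zbp1 (1.21), Gbp2 (1.16), Ifit3 (1.10) and Rtp4 (1.02), 20.0% of the 35 genes against 1.45% of all tested genes. Oasl1 had the least, 0.18, and WT replicate 4 exceeded it. Of 13 other interferon-inducible GTPases, 11 were highest of all 8 libraries in WT replicate 3, with a median excess of 1.49. Interferon receptors and kinases had a median excess of 0.05, macrophage markers −0.18, adipocyte markers 0.79 and endothelial markers 0.32. The 47 other interferon-stimulated genes had a median of 0.31, and 74.5% of them were highest of the WT in this library. All 12 adipocyte and 9 of 10 endothelial markers were highest of the WT in it, and none of either was highest of all 8. The part of these markers in the excess was not tested.

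**Figure D5:**
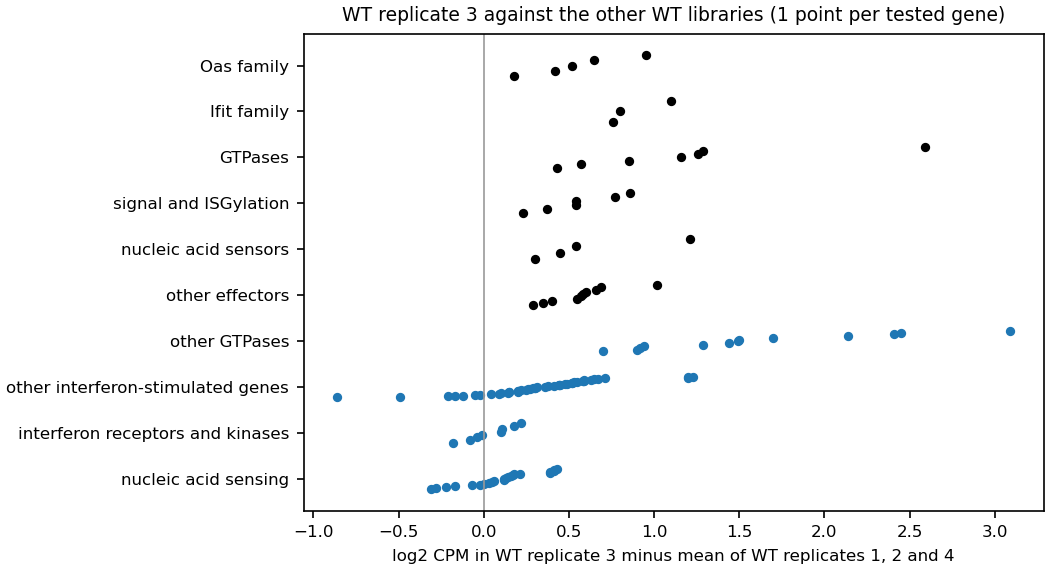
Excess of WT replicate 3 over the mean of the other 3 WT libraries in log2 CPM, 1 point per tested gene, for the 6 groups of the 35 genes (black) and for other interferon pathway lists (blue). All 35 genes lie above 0, with Iigp1 at 2.59, while receptors, kinases and nucleic acid sensing genes lie around 0.

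Knockout libraries also differed among themselves. Knockout replicate 3 was the highest knockout in 20 of the 35 genes, where 22.3% of all tested genes were highest in it, with a median deviation of 0.45 from the other 3. Replicate 2 was the lowest in 20, against 20.6% of all tested genes. Isg15, Rsad2 and Ifi35 were highest of all 8 in knockout replicate 4. That library was the highest knockout in 5 of the 35 genes, against 33.4% of all tested genes. Red blood cell markers took 1.19% of its reads. These markers took 0.406% in knockout replicate 3 and at most 0.0826% elsewhere. The part of red blood cell RNA in these values was not tested.

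Around the 35 genes the pathway was described with lists of 139 other genes, of which 122 had a row and 119 were tested. Of these 33 fell and 7 rose, with a median change of −0.22, where 16.1% and 22.7% of all tested genes did. Of 11 interferon ligand genes named, 0 had a row in the table used here, so ligand messenger RNA was not analysed here. Among 8 tested receptors and kinases 4 fell. Ifnar1 stood at 6.97, 6.93, 6.97 and 7.02 in WT and at 6.22, 6.39, 6.31 and 6.26 in the knockout. This narrow spread gave a fall of 0.68 ± 0.08 (adjusted p = 0.000307). Il10rb, the shared chain of interferon lambda and interleukin-10 receptors, fell by 1.16 ± 0.11 (adjusted p = 9.7e-05), Ifngr2 by 0.97 ± 0.23 (adjusted p = 0.0102) and the kinase Tyk2 by 0.50 ± 0.09 (adjusted p = 0.00266). The partner chains Ifnar2 (−0.22 ± 0.10, adjusted p = 0.128) and Ifngr1 (0.20 ± 0.13, adjusted p = 0.253) did not pass. Ifnar2 was called lower with array weights (−0.26, adjusted p = 0.0364) and without knockout replicate 1 (−0.28, adjusted p = 0.0379).

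For the lists that follow, 16.1% of all tested genes fell and 22.7% rose. Of 11 signal transducers and interferon regulatory factors 3 fell. Irf5, a factor of myeloid cells, fell by 2.24 ± 0.20 (adjusted p = 8.48e-05), Irf8, which drives myeloid development, by 1.61 ± 0.22 (adjusted p = 0.000664) and the corepressor Irf2bp2 by 0.62 ± 0.20 (adjusted p = 0.0359). The call of Irf2bp2 was lost without any 1 of WT replicates 1 to 4 and knockout replicates 1 and 2 (adjusted p up to 0.1). Irf1 did not pass (0.30 ± 0.15, adjusted p = 0.129) and was called higher without WT replicate 3 (0.42, adjusted p = 0.0406). Of 23 genes of nucleic acid sensing 13 fell and none rose. The smallest p were those of the kinase Ikbke (−1.67 ± 0.10, adjusted p = 1.89e-05) and the endosomal receptor Tlr7 (−1.90 ± 0.15, adjusted p = 4.1e-05). Next came the DNA sensor Aim2 (−1.86 ± 0.16, adjusted p = 7.11e-05) and Unc93b1, the chaperone of endosomal Toll-like receptors (−1.52 ± 0.15, adjusted p = 0.000131). These were not the largest falls, and changes in this list reached −2.93. Of 11 negative regulators 4 fell and 2 rose, among them the phosphatases Ptpn6 (−1.84 ± 0.14, adjusted p = 3.62e-05) and Ptpn1 (−1.01 ± 0.12, adjusted p = 0.000291), the nucleotide hydrolase Samhd1 (−0.96 ± 0.12, adjusted p = 0.000332) and, upward, the phosphatase Ptpn11 (0.71 ± 0.10, adjusted p = 0.000824).

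Of 47 further interferon-stimulated genes 8 fell and 5 rose, where 16.1% and 22.7% of all tested genes did. Slfn2 fell by 1.91 ± 0.12 (adjusted p = 2.13e-05) and Slfn9, of the same Schlafen family, by 1.95 ± 0.31 (adjusted p = 0.00146). Shisa5 fell by 0.70 ± 0.10 (adjusted p = 0.000812) and Tor3a by 0.69 ± 0.13 (adjusted p = 0.00295). Ifi27 rose by 0.74 ± 0.15 (adjusted p = 0.00541), its neighbour in name Ifi27l2a by 1.28 ± 0.33 (adjusted p = 0.0146) and the helicase gene Helz2 by 0.82 ± 0.18 (adjusted p = 0.00757). Eif2ak2 (PKR), a kinase activated by double-stranded RNA, changed by −0.26 ± 0.12 (adjusted p = 0.113). None of the 13 other GTPases was called in limma, with 0 lower and 1 higher at an unadjusted p under 0.05. Gbp4 stood at 6.92 in WT replicate 3, between 4.15 and 4.72 in the other WT libraries and between 5.05 and 5.32 in the knockout, the same order as Gbp2.

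Markers of some cell types moved with the groups, and those of others mostly did not. Of 20 macrophage markers 19 fell, with a median change of −2.32, and of 10 markers of lipid-associated macrophages 9 fell. Of 12 adipocyte markers 11 rose, with a median of 1.95, and of 10 endothelial markers all 10 rose, with a median of 1.02. Other immune lists had few calls, all lower. They were 2 of 9 monocyte markers, 1 of 12 T and NK cell, 1 of 5 B cell, 1 of 6 plasmacytoid dendritic cell and 0 of 4 neutrophil markers. Among all tested genes 16.1% fell and 22.7% rose. The median change was −0.21 for monocyte and 0.73 for T and NK cell markers. In tissue RNA fewer cells of a type and less RNA per cell cannot be told apart. Set against the mean of the 20 macrophage markers in the same library, Oas1a lay at −4.56, −4.43, −3.78 and −4.34 in WT and at −4.28, −4.13, −3.50 and −3.85 in the knockout, so these ranges overlapped. That log2 ratio changed by 0.34 for Oas1a, 0.11 for Oasl1 and 0.63 for Oas3, where the marker mean itself changed by −2.18. Mx1 and Dhx58 changed against it by 1.42 and 1.40, Oas2 by 1.94 and Gbp2 by 2.72. The order of the 35 genes on this scale is that of their own changes. The part of the lower macrophage markers in the falls of Oas1a, Oas3, Oasl1, Mx1 and Dhx58 was not tested.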

How the data were processed

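Per the labels' protocols, polyA RNA of epididymal fat was extracted with TRIzol and RNeasy columns, and libraries from a strand-keeping TruSeq kit were sequenced from 1 end for 75 bases. Per the submitters' processing notes, Trimmomatic, TopHat2, featureCounts, limma and the build mm9 were used; no version or setting is named there. The authors deposited 1 table of voom log2 CPM values. Each is log2 CPM after adding 0.5 to the reads and 1 to the library total, so whole reads could be worked out (100% of values within 0.01 read of a whole number).

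The 35 genes, the pathway and marker lists and the tests were chosen with earlier results of these data known. Genes averaging 0 log2 CPM or more over the 8 samples (13797, all 35 among them) were tested with limma 3.58.1 in R 4.3.3 (lmFit, then eBayes with trend, group as the only term, two-sided, Benjamini-Hochberg at 0.05). Family contrasts used an exact permutation test over samples. The script was tested on simulated reads. All called members and all Oas, Ifit and GTPase genes were to be given by library, other members by change, and of each pathway list the called genes with the smallest p, up to 4, beside Irf1, Ifnar1, Ifnar2, Ifngr1 and Eif2ak2. Other genes of that rule are not reported here. Gbp4, Ifi44, Isg15, Rsad2, Parp9, Zbp1, Helz2, Ifi27, Ifi27l2a, Cxcl10, Oas1b and Oas1c were given more fully after their values were seen. Alternatives were log2(CPM + 1), median centring, quantile normalization, a filter at 2, no filter, eBayes without trend, voom weights, array weights, a replicate block, the ribosomal RNA class as a covariate, leaving out libraries with over 1% epididymis reads and leaving out each library. Sequences came from RefSeq and GENCODE tables of GRCm38, matched by symbol, and no position was moved between builds. Plots were drawn with matplotlib 3.10.9.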

Additional observations from a re-analysis of the deposited data

Results flagged for a closer look

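Values far from the other libraries of their group were looked for in the 35 genes and both groups, 70 groups of 4 libraries in all, by the gap to the nearest library as a share of the group's range (Dixon's limit for 4 values). Chance gives about 1 in 20 groups, and 9 were found. The groups share the same libraries and their genes can move together, so that rate is no test of the count. In 7 of them WT replicate 3 was high. Iigp1 stood at 7.14 log2 CPM there and between 4.43 and 4.65 in the other WT libraries. Gbp2 stood at 6.76 against 5.54 to 5.72, Gbp3 at 5.50 against 4.21 to 4.28, Irgm1 at 5.56 against 4.93 to 5.03 and Igtp at 5.19 against 3.82 to 3.96. Rtp4 stood at 4.57 against 3.43 to 3.62, and Parp9 at 6.29 against 5.70 to 5.72. In the other 2, knockout replicate 3 was high within its group, with Oas1a at 2.61 against 1.94 to 2.05 and Dhx58 at 3.72 against 3.02 to 3.12. Both of these values lay below all 4 WT libraries.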

How the results depend on the processing

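Oas1a, Oas3 and Oasl1 kept their direction and their call in every alternative that tested them (Oas3 was under the filter at 2, where 32 of the 35 genes were tested and 4 fell). Total scaling gave 58.6% of all calls as higher, median centring 46.4% (2444 higher, 2825 lower) and quantile normalization 48.2% (2478 higher, 2660 lower). They moved the median change of all genes from 0.18 to 0.03 and 0.04. Of the 35 genes, the number that fell was 3 without the libraries rich in epididymis reads, a fit with fewer libraries. It was 4 to 6 with a library left out. The number that rose was 1 with array weights and 0 to 4 with a library left out, the 4 being without WT replicate 3. Other pathway genes that rose numbered 14 with array weights and 6 to 13 with a library left out, the most without WT replicate 3. The contrasts Oasl2 minus Ifit2, Oasl2 minus Gbp2 and Ifit2 minus Gbp2 ranged from −0.18 to 0.19, from −1.23 to −0.85 and from −1.16 to −0.88 with a library left out. Replicate numbers were not taken as pairs in the main fit. Correlations over all tested genes were 0.362, 0.79, 0.239 and −0.359 for numbers 1 to 4, and only number 2 correlated best with its own number. These correlations cannot exclude that samples of equal number were handled together, and the labels do not say. Replicate 3 was high for the 35 genes in both groups (median deviations of 0.58 in WT and 0.45 in the knockout). With a replicate block 2136 genes were lower and 3232 higher, 6 of the 35 genes fell and Zbp1 was added (adjusted p = 0.0256). Every gene that reversed was uncalled with all 8 libraries, Iigp1 alone was called after its reversal (without WT replicate 3), and the cause was not tested. Median centring gave −0.10 for Mx2, −0.08 for Irf7, −0.13 for Usp18, −0.10 for Ddx58, −0.12 for Xaf1 and −0.084 for Dtx3l. Quantile normalization gave −0.33 for Mx2, −0.047 for Irf7, −0.28 for Usp18, −0.022 for Ddx58, −0.16 for Xaf1, −0.12 for Ifi44 and −0.017 for Dtx3l. Voom weights gave −0.011 for Mx2 and 0.031 for Igtp, array weights 0.014 for Irgm1, 0.083 for Igtp and 0.017 for Ifih1, and the ribosomal RNA class as a covariate 0.19 for Iigp1, −0.10 for Irf7 and −0.15 for Usp18. With a library left out, ranges were −0.17 to 0.28 for Irf7, −0.20 to 0.21 for Usp18, −0.071 to 0.26 for Mx2, −0.093 to 0.17 for Xaf1, −0.078 to 0.18 for Dtx3l, −0.38 to 0.52 for Iigp1, −0.26 to 0.009 for Irgm1, −0.22 to 0.24 for Igtp, −0.17 to 0.053 for Ifih1 and −0.026 to 0.15 for Ddx58. Depth limits the low genes: Oas3 rests on 6 reads and Mx2 and Ifi44 on 10 and 11 in their shallowest libraries.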

Other observations

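The genes that set WT replicate 3 most apart from all 7 other libraries were largely of the interferon pathway. Of the 10 tested genes with the largest gap, 8 were among the 35 genes or the other pathway lists. The inducible GTPases Tgtp2 (gap 2.04 log2 units), Iigp1 (1.74), Gbp4 (1.60), Gbp10 (1.59), Tgtp1 (1.43) and Gbp6 (1.11) led, with the chemokine Cxcl10 (1.09) and Zbp1 (1.02). Tgtp1 and Tgtp2 are near-identical copies, so the split of reads between them is uncertain. The other two were 4833422C13Rik (1.43) and Phf11a (1.27). Cxcl10, a chemokine that draws T cells, stood at 1.93, 2.07, 3.16 and 1.87 in WT and at 1.49, 1.56, 0.19 and 1.16 in the knockout, without overlap, and just missed the threshold (−1.15 ± 0.41, limma adjusted p = 0.0522).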
